A study of Hordeum vulgare with 18 samples.

Results

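Among the genes of the barley spike whose transcript levels moved over heading in plants with a silenced HvCKX1 gene, a small set had a mean stage difference below a set limit in the control plants. That set is described here. It holds 71 of the 26066 features in the table, 66 lower and 5 higher after heading, and the genes are called falling and rising members below by that sign. Members were chosen by measured values. A feature with an identifier beginning with MLOC needed at least 50 normalized counts in 3 or more libraries, which 18567 features had. The mean of log2(normalized count + 1) at stage 59 minus that at stage 49, called the stage change below, had to be at least 1.5 in size and of one sign in both silenced lines. The values of the stages could not overlap in either line, and the stage change of the control had to stay below 0.75 in size. The rule limits the set to 150, which was not reached.

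RNA was sequenced from whole spikes of the barley cultivar Golden Promise (Hordeum vulgare), grown in field plots. A pair of independent transgenic lines with silenced HvCKX1, named KD-CKX1 5.8 and KD-CKX1 17_10 (line 5.8 and line 17_10 below), stood beside an azygous control, which carries no copy of the transgene. Each genotype was sampled at stages 49 and 59 of the BBCH scale, with 3 libraries per genotype and stage, 18 in all. The series' design text calls the replicates biological and speaks of grains, where the labels of every library give the whole spike. The sources used here do not say how HvCKX1 was silenced, or whether a replicate holds spikes of a single plant or of several.

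HvCKX1 encodes a cytokinin oxidase/dehydrogenase. Enzymes of this class break down cytokinins, plant hormones that promote cell division in meristems and delay ageing of leaves, and cereal inflorescences are a known site of their action. BBCH stage 49 is the time when the first awns show at the flag leaf sheath, and stage 59 is the end of heading, when the whole spike has emerged. The deposited table gives gene identifiers alone, and 0 of them matched the 58438 barley genes of the reference table used for names. The members therefore have no gene names, functions or sequences here, no gene list or marker of a cell type could be formed, and the silenced gene could not be read to check the labels.

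The libraries held 24459652 to 106034579 reads each, recovered from the normalized values. The first principal component of all tested features, with 67.2% of the variance, separated the stages. Along it the control libraries of stage 49 lay at -109.5, -157.1 and -86.7 for replicates 1 to 3, while the 6 line libraries of that stage lay between -158.8 and -126.2. The 3 libraries that deviated most from the rest of their own group were replicate 2 of line 5.8 at stage 49, replicate 1 of line 5.8 at stage 59 and replicate 2 of the control at stage 49, with an SD of the deviation across features of 1.28, 0.96 and 0.92 on the log2 scale against 0.45 to 0.90 in the others.

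Most of what moved in both lines also moved in the control. Without its condition on the control, the rule was met by 3118 features (16.8% of 18567). In 2753 of them, or 88.3%, the control had a stage change of at least 1.5 in the same direction, and in 287 more it had one between 0.75 and 1.5. The 71 members make up 2.28% of the 3118 and 0.382% of the 18567. In 7 other features, all lower after heading in the lines, the control went the opposite way by at least 0.75. The members are unevenly split by direction, since they are 3.83% of the 1723 features lower after heading in both lines and 0.358% of the 1395 that were higher.

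**Figure D1:**
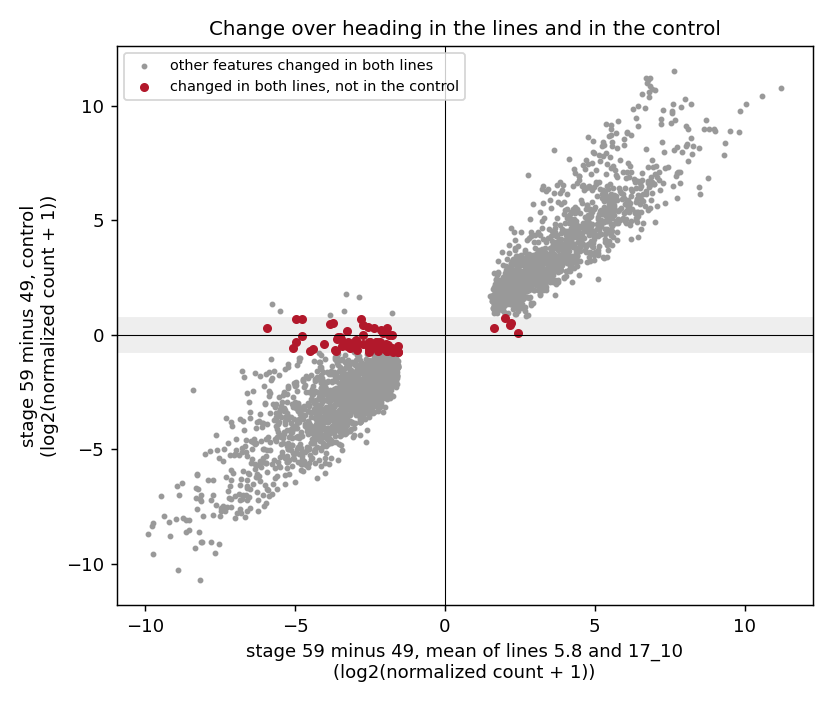
Stage change (stage 59 minus 49, log2(normalized count + 1)) in the control, vertical, against the mean stage change of lines 5.8 and 17_10, horizontal, for the 3118 features that met the rule's conditions on the lines. The 71 members (red) lie in the grey band, where the control is below 0.75 in size, at the edge of a cloud in which most features moved alike in all 3 genotypes.

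The same rule with the genotypes exchanged gives sets of other sizes. For line 17_10 and the control moving while line 5.8 stayed below 0.75 it finds 107 features, 86 falling and 21 rising. For line 5.8 and the control moving while line 17_10 stayed below 0.75 it finds 11, with 1 falling and 10 rising. The count of 71 for the silenced lines against the control thus lies between those of the pairs that mix a line with the control.

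The members sit close to the limits of the rule in places. The 3 largest stage changes of the control among members were 0.738, 0.740 and 0.745 in size, and the nearest features left out had 0.756, 0.759 and 0.765. For the smaller of the stage changes of the lines, the members nearest the limit had 1.502, 1.508 and 1.527, and the nearest features left out had 1.498, 1.494 and 1.493.

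In the 66 falling members the median stage change, a difference on the log2 scale, was -2.96 in line 5.8 (range -6.60 to -1.53), -2.14 in line 17_10 (-5.53 to -1.50) and -0.41 in the control (-0.75 to 0.71). In 55 of the 66 the difference was larger in line 5.8 than in line 17_10. The control was on the lower side of 0 in 51 of the 66, so its mean usually leaned the same way as the lines. In the 5 rising members the stage changes ran from 1.66 to 2.68 in line 5.8, from 1.62 to 2.60 in line 17_10 and from 0.08 to 0.74 in the control. These values chose the members and are given with no test.

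Members were less abundant than most features. Their mean over the 18 libraries had a median of 120 normalized counts, against 1064 for the 18567 features at the same minimum level and 402 for the 2753 features that moved in all 3 genotypes. The range among members was wide, from 20.2 to 47857 normalized counts. Together the falling members made up 0.053 to 0.204% of all normalized counts in the 6 line libraries of stage 49 and 0.00913 to 0.0534% in the 6 of stage 59. In the control they made up 0.0364, 0.112 and 0.0249% in replicates 1 to 3 at stage 49 and 0.0331, 0.0484 and 0.0408% at stage 59. The stage 49 control libraries therefore lay on both sides of the stage 59 ones. A single gene, MLOC_57679, named because of its abundance, made up 36.6 to 63.1% of these sums in the 18 libraries.

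**Figure D2:**
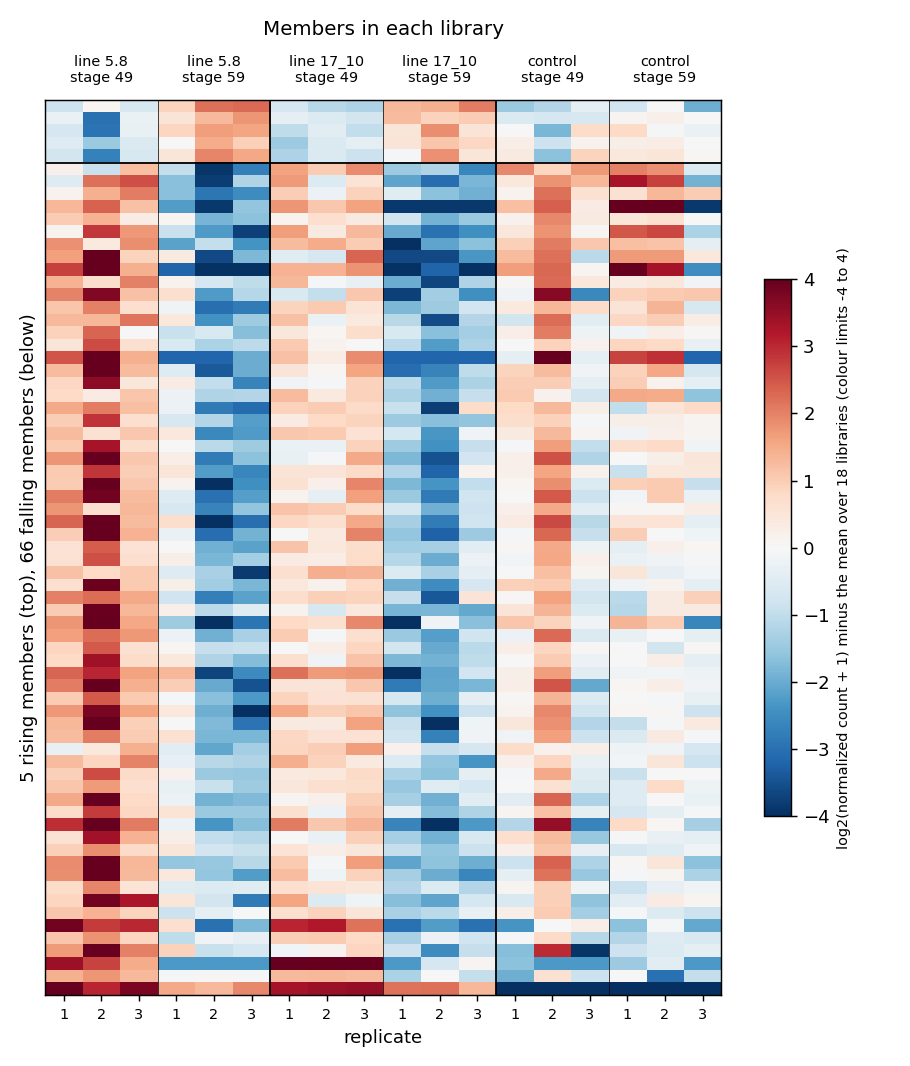
Each row is a member and each column a library; colour gives log2(normalized count + 1) minus the member's mean over the 18 libraries, with colours limited to -4 and 4. The 5 rising members are on top and the 66 falling members below, ordered by the position of the control between the stage levels of the lines. In most falling members replicate 2 of the stage 49 control is the reddest control library, in 51 of 66.

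The control values varied widely within the limit set on the difference of their means. The 6 control libraries of a member spanned a median of 2.47 on the log2 scale (range 0.00 to 8.82), and in 46 of 71 members this span was at least as large as the smaller stage change of the lines. In 3 members it was below 1. No overlap between the control's stages was found in 2 of 71 members, MLOC_32832 and MLOC_68772, named because they are so few, while 62.2% of all features at the same level had none. This share carries no result about the members, since their choice required a small difference in the control.

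A single control library set the upper end of the span in most falling members. In 59 of the 66 falling members replicate 2 was the highest of the 3 stage 49 control libraries, and in 51 it was the highest of all 6 control libraries. The lowest of the 6 was replicate 3 of stage 49 in 25 and replicate 3 of stage 59 in 21. Replicate 2 of stage 49 exceeded the mean of replicates 1 and 3 by a median of 1.60 on the log2 scale, against 0.73 in the 1442 features lower after heading in all 3 genotypes. Measured from replicate 2 alone, the median stage change of the control in the falling members was -1.50, and from replicates 1 and 3 it was 0.14. The same replicate 2 had the lowest value of the stage 49 controls on the first component, and replicates 1 and 3 lay nearer to stage 59 on it than any line library of stage 49. The part of this spread along the first component in the choice of the members was not tested.

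Each library was placed between the stage levels of the lines by setting the mean of the 6 line libraries at stage 49 to 0 and that at stage 59 to 1, for each member on the log2 scale. Over the falling members the median position of the stage 49 control libraries was 0.41, -0.13 and 0.64 in replicates 1 to 3. At stage 59 it was 0.48, 0.35 and 0.57. The control thus stood near the middle at both stages, except in replicate 2 of stage 49, which stood at the stage 49 level of the lines. In the 1442 features lower in all 3 genotypes the same control libraries stood at 0.12, -0.07 and 0.20 at stage 49 and at 0.95, 1.02 and 1.05 at stage 59, near the level of the lines. Those features were chosen for a stage change of at least 1.5 in the control and the members for one below 0.75, so the choice forces part of this contrast. The choice does not set at which stage the control departs from the lines. In MLOC_20041, for example, the stage 59 control stood at 0.95.

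The line libraries also spread along this scale. At stage 49 replicate 2 of line 5.8 stood at -0.59, below 0 and beyond the 5 others, which ran from -0.03 to 0.29. At stage 59 replicate 1 of line 5.8 stood at 0.50, inside the range of the control libraries, and the 5 others ran from 0.87 to 1.26. These are the libraries set apart above, and in the 1442 features lower in all 3 genotypes they stood at -0.07 and 0.94, close to the rest of their groups. In the rising members the medians were 0.47, -0.17 and 0.59 in the stage 49 controls, 0.64, 0.53 and 0.43 in the stage 59 controls, -0.73 in replicate 2 of line 5.8 at stage 49 and 0.69 in replicate 1 at stage 59.

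**Figure D3:**
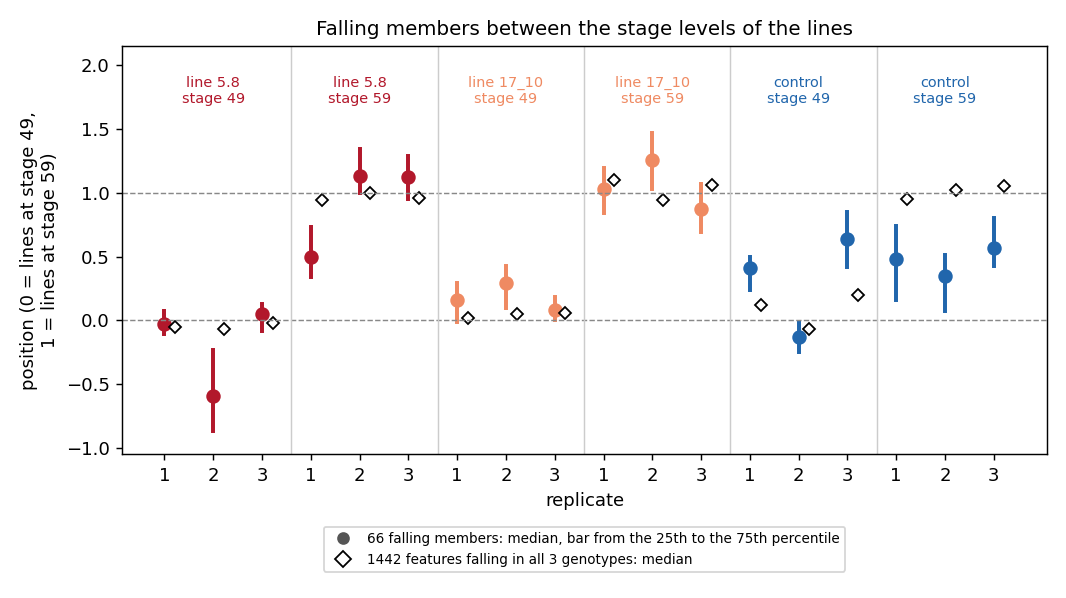
Position of each library between the line means at stage 49 (0) and stage 59 (1), on the log2 scale, by genotype, stage and replicate. Coloured points are medians over the 66 falling members with bars from the 25th to the 75th percentile. Open diamonds are medians over the 1442 features lower in all 3 genotypes. The stage 59 controls stand at 0.35 to 0.57 for the members and at 0.95 to 1.05 for the others. The choice of both sets by the control's stage change forces part of this contrast.

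Replicates differed more in the members than in other features, in sets that were not matched for abundance. The members had a median of 120 normalized counts, against 1064 over all features and 402 over those that moved in all 3 genotypes. Both the members and the features that moved in all 3 genotypes were chosen by stage changes, which depend on the spread of replicates. The parts of abundance and of this choice in the differences of SD were not tested. The median SD within a group, on the log2 scale, was 0.99 in the control at stage 49, against 0.23 over all features at the same level and 0.61 over those that moved in all 3 genotypes. In the control at stage 59 the 3 values were 0.48, 0.16 and 0.35. In line 5.8 the members had 1.12 and 1.05 at stages 49 and 59, against 0.32 and 0.27 over all features and 0.69 and 0.44 over those that moved in all 3 genotypes. In line 17_10 they had 0.44 and 0.68, against 0.14 and 0.20 and against 0.29 and 0.48. The falling members also varied together: deviations from the group means correlated at a mean pairwise r of 0.44 across the 18 libraries, against 0.17 among the features lower in all 3 genotypes. The libraries are shared by all these pairs, and the correlations are a description.

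The control mean over its 6 libraries stood below 1/3 on the position scale in 30 members (28 falling, 2 rising), between 1/3 and 2/3 in 34 (31 and 3), and above 2/3 in 7, all falling. In the first class the control was nearer to the lines before heading, and in the last it was nearer to the lines after heading. At stage 59, 17 of the 66 falling members had a mean below 10 normalized counts in both lines, and in 15 of the 17 the control mean was at least 10. The rule favours this order, since it required a fall in the lines and a small stage change in the control. No share over all features was taken, and nothing is read from this count. In 3 members, MLOC_20041, MLOC_61480 and MLOC_54756, the control mean was below 10 at both stages.

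Set directly against the control, the falling members had median differences of like size at both stages in line 5.8, and mostly at stage 59 in line 17_10. At stage 59 the median difference from the control was -1.34 in line 5.8 and -1.52 in line 17_10 on the log2 scale, with medians of 0.02 and -0.01 over all 18567 features. Line 5.8 was above the control in 6 of the 66, and line 17_10 in 3, where 9708 and 9051 of the 18567 features were. At stage 49 the median difference was 1.30 in line 5.8, above the control in 65 of 66, and 0.24 in line 17_10, above it in 48. Over all 18567 features the stage 49 medians were -0.01 and 0.00, with 8952 and 9353 above the control. Replicate 2 of line 5.8 at stage 49 was the highest of all 18 libraries in 48 of the 66. The rule requires falling members to be higher at stage 49 in the lines, and this library deviated most from its group over all features. No share over other features was taken for this count. All 6 line libraries lay below all 3 control libraries at stage 59 in 13 of the 66, where 2.01% of all features had this order, and above them at stage 49 in 5, where 0.759% had it. At stage 59 they lay above the controls in 3 members, MLOC_56230, MLOC_68772 and MLOC_54756, where 1.63% of all features did. The rule requires a difference between the stages, so these counts describe where it fell. Both lines are compared with the same control libraries.

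Among the rising members, MLOC_56230 had the largest smaller stage change. In line 5.8 it stood at 1051, 1963 and 1181 normalized counts at stage 49 and at 3469, 8517 and 8969 at stage 59. In line 17_10 it stood at 1171, 853.3 and 775.8, then at 4580, 4966 and 7611. The control had 668.4, 828.3 and 1444 at stage 49 and 1086, 1812 and 481.6 at stage 59. All line libraries of stage 59 were above every control library, and at stage 49 the genotypes overlapped.

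MLOC_18145, the next by the same order, had 186.8, 37.11 and 239.3 normalized counts at stage 49 in line 5.8 and 541.3, 954.4 and 881.8 at stage 59. Line 17_10 had 144.6, 220.5 and 151.1, then 413.3, 1069 and 429.5. The control had 295.3, 83.06 and 492.1, then 513.8, 285.1 and 243.5, so its stages overlapped and its stage 59 values overlapped those of line 17_10.

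MLOC_68772 and MLOC_37763 were the rising members with the narrowest control values. In MLOC_68772 the control had 12777, 12012 and 12401 normalized counts at stage 49 and 20796, 22130 and 19266 at stage 59. Line 5.8 had 15899, 2462 and 15879, then 27556, 47089 and 65003, and line 17_10 had 14544, 13138 and 11620, then 46545, 36558 and 39078. Its control values did not overlap between stages, its control stage change of 0.74 lay just inside the limit, and at stage 59 every line library was above every control library.

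In MLOC_37763 the control had 49539, 23453 and 45711 normalized counts at stage 49 and 47963, 51316 and 40341 at stage 59. Line 5.8 had 28794, 14871 and 27766, then 40781, 114755 and 80006, and line 17_10 had 15225, 27406 and 31891, then 59349, 89514 and 72749. Replicate 1 of line 5.8 at stage 59 lay among the control values, and the 5 other line libraries of that stage lay above them. The fifth rising member is MLOC_68371.

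Among the falling members, MLOC_71162 had the largest smaller stage change. Line 5.8 had 102.1, 357 and 40.71 normalized counts at stage 49 and 0.6758, 0 and 0 at stage 59, and line 17_10 had 39.53, 39.71 and 52.61, then 0, 0.6849 and 0. The stage 59 level rested on 1 read in each line, so the ratio of means of stage 49 to stage 59 was 740 in line 5.8 (95% exact Poisson interval of that count 133 to 29210) and 193 in line 17_10 (34.6 to 7604). The control had 47.94, 75.23 and 15.72 at stage 49, then 263, 155.2 and 1.81 at stage 59, so replicate 3 of stage 59 was near the lines and the 2 others were above every stage 49 control. Intervals and floors cover counting error alone.

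MLOC_20041 was nearly silent in the control throughout, with 0.551, 0 and 0 normalized counts at stage 49 and 0.7691, 2.652 and 0 at stage 59. Line 5.8 had 51.05, 30.93 and 12.63 at stage 49 and 0 reads in all 3 libraries at stage 59. Line 17_10 had 89.67, 91.24 and 78.44, then 0, 2.055 and 4.309. With 1 read in the stage 49 controls, the ratio of line 17_10 to the control at that stage was 471 (95% exact Poisson interval 84.5 to 18591), and that of line 5.8 was 172 (30.8 to 6782). Here the lines stood apart from the control before heading and overlapped it after.

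MLOC_54756 had 0 reads in all 6 control libraries, where a count of 0 allows up to 3 reads, or 1.65 to 3.98 normalized counts. Its control stage change of 0 is that of a gene with no control reads. Line 5.8 had 975, 339.3 and 562.2 normalized counts at stage 49 and 117.6, 100.3 and 153.5 at stage 59, and line 17_10 had 414.6, 446.1 and 462, then 185.4, 186.3 and 102. Both lines stood above the control at both stages, at least 173-fold at stage 49 and at least 41.3-fold at stage 59 against a floor of 3 reads per library.

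MLOC_5511 had the next narrowest control values, with 52.9, 62.69 and 31.44 normalized counts at stage 49 and 38.46, 38.46 and 35.3 at stage 59. Line 5.8 had 64.75, 243.9 and 51.93, then 20.28, 13.83 and 6.289, and line 17_10 had 40.5, 57.45 and 60.26, then 11.17, 9.588 and 10.05. At stage 49 all 3 genotypes overlapped, and at stage 59 every line library was below every control library. At the other end, MLOC_71584 had the widest control span, 8.82 on the log2 scale, and was singled out after its values were seen.

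**Figure D4:**
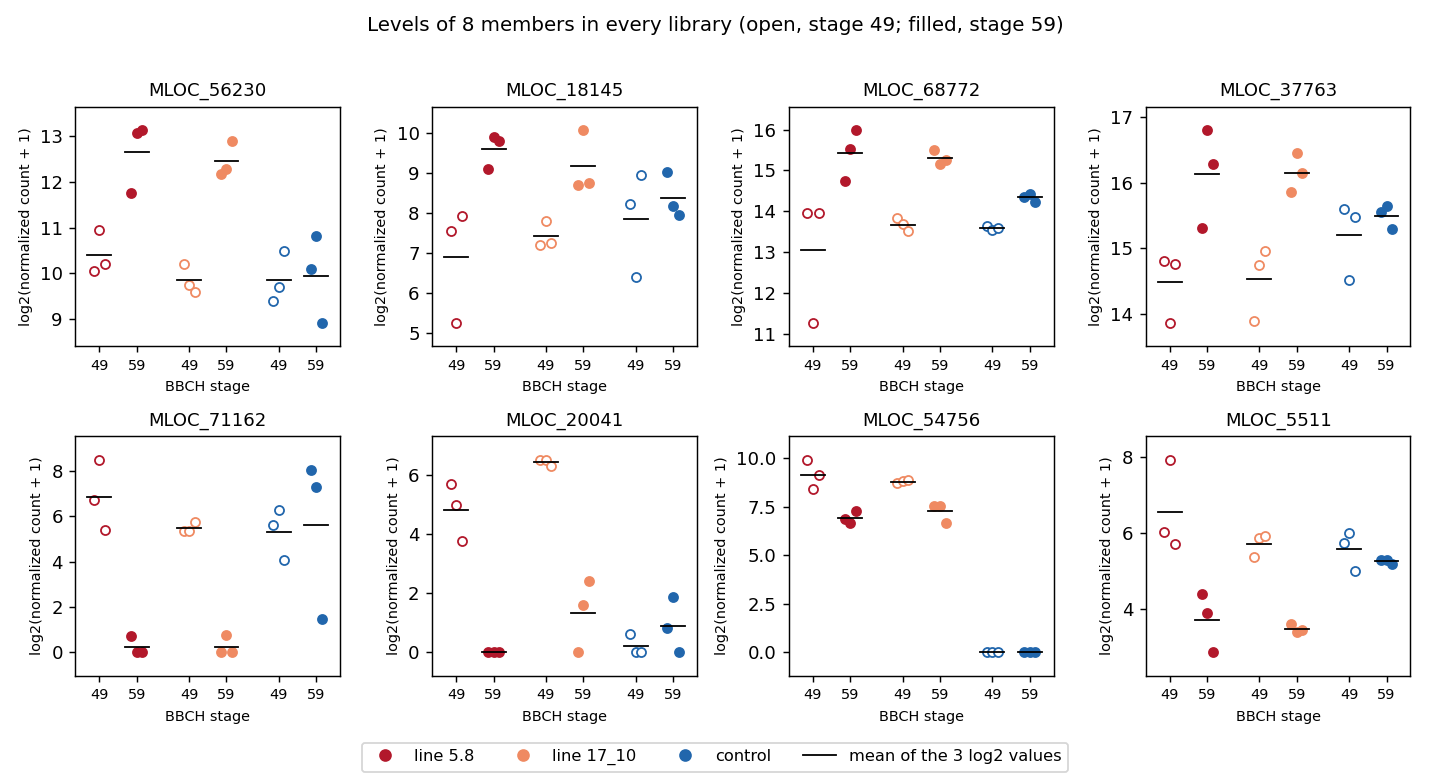
Levels of the 8 members chosen for description, as log2(normalized count + 1), in every library; open points are stage 49, filled points stage 59, and lines the mean of the 3 log2 values of a group. MLOC_56230 and MLOC_5511 have control stage changes of 0.08 and -0.33, over control spans of 1.91 and 0.97 on the log2 scale. In both, the lines stand apart from the control at stage 59. MLOC_54756 has no control reads, and the control of MLOC_71162 spans 6.55.

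Membership depended on single libraries, of the control and of the lines. When the rule was applied again without replicate 2 of the stage 49 control it found 159 features, 56 of them among the 71. Without replicate 3 of that group it found 34, with 31 of the 71, and without any other single library between 49 and 96. The 49 were found without replicate 2 of line 17_10 at stage 59, with 47 of the 71. In 10 members (9 falling, and MLOC_56230) the rule was met whichever of the 18 libraries was left out. The 9 falling ones, MLOC_5511 among them, had stage changes of -4.15 to -2.05 in line 5.8, -2.97 to -1.77 in line 17_10 and -0.44 to 0.10 in the control. The control spans of the 10 ran from 0.97 to 2.26, and at stage 59 every line library was below every control library in 5 of the 9, where 2.01% of all features had this order. These 9 were picked for a stage difference that held, which fixes much of that count.

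The difference itself between the stage change of the lines, averaged, and that of the control was fitted over 20874 features, all 71 members included, with limma. At an adjusted p below 0.05, 0 features passed (0% of 20874), so 0 of the 71 members did. The lowest adjusted p among members was 0.079, for MLOC_20041 (difference of stage changes -5.65 on the log2 scale, SE 0.79, limma with Benjamini-Hochberg adjustment, n = 3 per group). An unadjusted p below 0.05 was reached by 45 of 71 members and by 6.05% of all features. Since the rule selected on this contrast, nothing can be read from the count of members. edgeR's quasi-likelihood test on the recovered reads gave 0 features and DESeq2 gave 44, 5 of them members.

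That fit also depended on single libraries. Without replicate 3 of the control at stage 59 it called 63 features, 5 of them members, and without replicate 1 of line 5.8 at stage 59 it called 17, with 1 member. Without the 3 libraries that deviated most from their groups, a choice made after seeing the data that also lowers the estimated spread, it called 1236, with 46 members. As the rule selected on this contrast, nothing is read from these counts of members. The rule applied to the remaining 15 libraries found 173 features, with 47 of the 71.

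The level of a member averaged over both stages does not enter the stage changes, and it was compared between genotypes in the same fit. It is not free of the rule's minimum of 50 normalized counts in 3 libraries, which 51 of 71 members reached in the control libraries alone and which 5 members reached in no control library. MLOC_54756 and MLOC_20041 are among these 5 and passed through the lines, where they are high, so their calls against the control are tied to the choice and are given as a description. MLOC_56230 was above the minimum in every control library. Against the control, 2 of 71 members differed in line 5.8, MLOC_54756 and MLOC_56230, both higher, where 0.858% of all features were called and 0.537% were higher. In line 17_10 there were also 2, MLOC_54756 and MLOC_20041, both higher, where 0.287% were called and 0.168% were higher. Since the choice favoured such members, nothing is read from these counts against the shares over all features. For MLOC_54756 the limma adjusted p was 1.2e-10 in line 5.8 and 2.1e-11 in line 17_10, and it was called in all 27 alternatives. MLOC_56230 was higher by 1.62 on the log2 scale in line 5.8 (SE 0.33, limma adjusted p = 0.028) and differed by 1.24 in line 17_10 (SE 0.33, limma adjusted p = 0.31). The call of MLOC_56230 in line 5.8 held in 21 of 27 alternatives (limma, edgeR and DESeq2 adjusted p from 0.00022 to 0.13), and was lost without replicate 1 of the control at either stage, replicate 2 of line 5.8 at either stage or replicate 3 of line 5.8 at stage 59, and when only the compared groups were fitted. MLOC_20041 was higher by 3.34 in line 17_10 (SE 0.46, limma adjusted p = 0.0016) and differed by 1.86 in line 5.8 (SE 0.46, limma adjusted p = 0.083). The call of MLOC_20041 in line 17_10 held in all 27 alternatives. A call in a single line does not show that the lines differ.

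For the other members no call was made in either line. The median difference from the control over the 71 members was 0.01 in line 5.8 and -0.57 in line 17_10, with a median of -0.01 over all features in each. These values average the stages. In line 5.8 the falling members had median differences of 1.30 at stage 49 and -1.34 at stage 59, so the small average does not mean equal levels. In line 17_10 their medians were 0.24 and -1.52, so its average mostly carries the stage 59 difference. In line 17_10, 11 of 71 members were above the control, where 47.7% of all features were, and in line 5.8 there were 36, where 49% were. An unadjusted p below 0.05 was reached in line 17_10 by 20 members, 4 of them higher, where 4.22% of all features reached it, and in line 5.8 by 10, 7 of them higher, where 18.7% did. The comparisons share their control libraries. All members were read in the same libraries and the falling ones varied together, so these are not counts of independent genes.

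The lines were also set against each other. Averaged over both stages, 0 of 71 members differed between lines 17_10 and 5.8 by limma at an adjusted p below 0.05, where 0.829% of all features did (0.311% higher and 0.517% lower in line 17_10), and 9 members had an unadjusted p below 0.05, where 17.6% of all features had. edgeR also called 0 members, with 150 features called in all, and DESeq2 called 3, with 999 in all. Line 17_10 was the higher in 12 of 71 members, where it was in 48.7% of all features. The median difference over members was -0.53 on the log2 scale (range -2.01 to 1.48), against -0.01 over all features. The lowest adjusted p among members was 0.11.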

How the data were processed

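The 18 whole-spike mRNA libraries, 3 in each of 6 groups, were stranded and made from 3 µg of total RNA, per the labels' protocols. The signal deposited by the authors is the count of each gene scaled by a size factor for each library (DESeq normalization, per the labels), with replicates kept apart. STAR 2.4.2a, Subread 1.5.2 and DESeq2 are named, without their roles, in the submitters' processing notes. Build, annotation and how strand and multiply aligned reads were handled in counting were not given in the sources used, so reads of near-identical or overlapping genes may be split or lost. Size factors set levels relative to the rest of the RNA in each library, so fewer cells of a type and less RNA per cell cannot be told apart.

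Dividing the values of a library by its lowest non-zero value gave whole reads for 100% of values (within 0.001 of a read). The chi-square per feature between replicates was at least 41.8, so none was counted as a copy. 0 columns were left unmapped.

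All differences are on the log2(normalized count + 1) scale, which understates the fold of low genes. Features with at least 10 normalized counts in 3 or more libraries entered limma 3.58.1 (R 4.3.3) with 6 group means, a mean-variance trend, two-sided tests and Benjamini-Hochberg adjustment over all features, called below 0.05. edgeR 4.0.16 and DESeq2 1.42.0 were run on the recovered reads. SE is the moderated standard error. Scripts were tested on simulated data. The labels give no batch. Deviations of same-numbered replicates correlated above 0.1 for all 3 numbers in 1 of 15 group pairs. That pair was line 5.8 and the control at stage 49, with r of 0.15, 0.39 and 0.40 for replicates 1 to 3. Replicate 2 of both groups is among the 3 libraries that deviated most. As no label pairs the libraries, the numbers were not taken as pairing them.

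Identifiers were named as follows: the 2 rising and 2 falling members with the largest smaller stage change, the 2 of each with the narrowest control values, and up to 2 higher and 2 lower members called against the control in both lines. That last part gave MLOC_54756 alone. Others are named where a count is small or their values singled them out. The members, lists and tests were chosen with earlier results of these data known. Alternatives were other pseudocounts, level limits, scalings, tools, a replicate block, the compared groups alone and each library left out.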

Additional observations from a re-analysis of the deposited data

How the results depend on the processing

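The number of members followed the limits of the rule. A limit of 1 on the lines gave 173 features (33 rising, 140 falling), and a limit of 2 gave 36 (1 and 35). A limit of 0.5 on the control gave 42 (3 and 39), and a limit of 1 gave 114 (12 and 102). Without each library in turn the rule gave 34 to 159 features, 2 to 26 of them rising and 31 to 133 falling. The other level limits, pseudocounts, scalings and overlap conditions moved the total by at most 1.5 times. The median position of the control over all members, 0.40, ran from 0.29 to 0.47 over its alternatives.

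Averaged over both stages, limma called 179 features in line 5.8 against the control, 60 in line 17_10 against the control and 173 between the lines. Leaving out 1 library gave 101 to 2674, 49 to 115 and 105 to 1945 features, and 1 to 7, 2 to 4 and 0 to 0 members. The highest counts came without replicate 1 of line 5.8 at stage 59 (2674 and 1945) and without replicate 3 of the control at stage 59 (115). DESeq2 on recovered reads gave 901, 171 and 999 features with 7, 5 and 3 members, and edgeR gave 162, 58 and 150 with 2, 2 and 0. With the compared groups alone the counts were 98 features and 1 member in line 5.8 and 112 features between the lines. A pseudocount of 5 gave 4 members in line 5.8. Without the 3 libraries that stand apart, chosen after seeing the data, the rule gave 173 features (23 rising, 150 falling), and limma called 4724, 121 and 3252 features with 11, 3 and 1 members. The causes were not tested.

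For the difference of stage changes between the lines and the control, leaving out 1 library gave 0 to 63 features and 0 to 5 members. A pseudocount of 5 gave 1 feature, a member, and no filter gave 2, with 1 member. DESeq2 gave 44 with 5 members, and leaving out the 3 libraries gave 1236 with 46. The rule selected on this difference, so nothing is read from its counts of members. With the replicate number as a block (replicate block) the counts were 158, 55 and 152 for the averaged comparisons, with 2, 2 and 0 members, and 0 for the difference of stage changes. Deviations of same-numbered replicates correlated above 0.1 for all 3 numbers only between control and line 5.8 at stage 49. No label pairs the libraries, so the block is an alternative and not the design. It changed no call of a member. Depth limits the members near 0, where 1 read was worth 0.551 to 2.234 normalized counts.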
